A study of Homo sapiens with 6 samples.

Results

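The genes of the phosphoinositide 3-kinase (PI3K) subunits were followed in RNA-seq of DLD1 cells, a human colorectal cancer cell line, with and without a mutation in one of these subunits. The members were chosen by name as catalytic or regulatory subunits of a PI3K complex: *PIK3R1*, *PIK3R2* and *PIK3R3* (class IA regulatory), *PIK3CA*, *PIK3CB* and *PIK3CD* (class IA catalytic), *PIK3C2A* and *PIK3C2B* (class II), and *PIK3C3* and *PIK3R4* (class III). They make up 10 of the 58884 genes listed. The 3 parental libraries came from unedited DLD1 cells, and the 3 p85β KR-AA libraries from DLD1 cells in which the K477A and R478A substitutions had been placed in p85β, the product of *PIK3R2*, to disable its nuclear localization signal. Every library carries the DLD1 background, which includes a mutation in the p110α helical domain (*PIK3CA*). Homozygous knock-in clones were made for the study, and the labels do not say which clone a library came from, nor whether libraries of one condition came from separate cultures, so that p-values measure the spread between these libraries, which may be technical. The source names of the p85β KR-AA libraries 2 and 3 give the second substitution as R479A and R480A, whereas the titles and genotypes of all 3 give R478A.

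Class IA PI3Ks pair a p110 catalytic subunit with a p85 or p55 regulatory subunit, which stabilizes p110 and brings it to phosphotyrosines of activated receptors and adaptors, where it makes the lipid PIP3. PIP3 recruits AKT and its kinase PDPK1, and lipid phosphatases remove it. Class II enzymes work as single large subunits in membrane traffic, and the class III pair VPS34 (*PIK3C3*) and VPS15 (*PIK3R4*) makes PI3P on endosomes and autophagic membranes.

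The libraries of the 2 conditions stood far apart. Library totals were 20301396 to 26712816 estimated counts, and genes with at least 1 count numbered 18922 to 19639 in parental and 23158 to 24315 in p85β KR-AA libraries. Of 14 markers of colon epithelium, 13 were above 1 CPM (counts relative to the TMM-scaled library size) in every parental library and 11 in every p85β KR-AA library, with summed levels of 57686 to 79738 and 9132 to 10667 CPM. The sum followed the keratin genes KRT8, KRT18 and KRT19, which were among 6 down-regulated markers, whereas CDH1 and CDH17 were up-regulated. CDX1, one of the defining markers, had at most 3 counts in each of the 6 libraries. Of 12 mesenchymal markers, 4 were above 1 CPM in every parental and 8 in every p85β KR-AA library, and their sum, led by FN1 and VIM, was between 12.01 and 16.1 CPM in parental and between 6339 and 7248 CPM in p85β KR-AA libraries, while COL1A2, PDGFRA and THY1 had at most 1 count in any library. The 8 neuronal markers summed to 521 to 609 and 339 to 362 CPM (2 and 4 above 1 CPM, DCX and ELAVL4 at 0 throughout). TUBB3 carried that sum in parental libraries (mean 561.4 CPM) and was lower, though not called, in p85β KR-AA libraries (210.9 CPM). NEFL, NEFM and GAP43, all at 0 counts in parental libraries, were up-regulated, NEFL to 4773, 3752 and 3672 counts (mean 131.5 CPM). The 8 blood cell markers summed to 54.8 to 66.6 and 51.5 to 60.5 CPM (2 and 3 above 1 CPM, PTPRC and HBB at 3 counts or fewer), mostly from CD68. LCP1 was up-regulated, from 3 counts in each parental library to 608, 425 and 417. In bulk RNA, a different share of cells and a different RNA level per cell cannot be told apart. These shifts accompany every result below, and their part in them was not tested. Whether both sets of libraries were prepared alike and came from the same line was not tested either, so each fold change below compares these libraries.

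The substitutions replace a lysine and an arginine in the coding part of exon 12 of *PIK3R2*. The sequences below show the 12 codons around them in the reference transcript (PIK3R2-201, codons 473 to 484, chr19:18276970-18277005, plus strand) and the matching codons of the other class IA regulatory genes, since these carry the same pair of residues. Sequences and positions are those of GENCODE 44 on GRCh37, read 5′ to 3′ along the coding strand, and capitals mark the lysine and arginine codons.
PIK3R2: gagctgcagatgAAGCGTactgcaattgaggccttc
PIK3R1: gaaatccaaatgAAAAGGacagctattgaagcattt
PIK3R3: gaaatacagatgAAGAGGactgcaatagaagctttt
The *PIK3R1* codons (PIK3R1-211, codons 476 to 487, exon 12) lie at chr5:67590364-67590399 on the plus strand and share 24 of the 36 bases with *PIK3R2*. The *PIK3R3* codons (PIK3R3-201, codons 208 to 219, exon 6) lie at chr1:46527708-46527743 on the minus strand and share 27 of the 36. Gene counts hold no bases, so the substituted codons themselves were not checked here.

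All 10 members passed the filter on low counts. Up-regulated and down-regulated mean a fold of at least 3 with an adjusted p under 0.01 in edgeR's quasi-likelihood test over 16059 genes. By that rule 6 members were up-regulated (*PIK3R1*, *PIK3CA*, *PIK3CB*, *PIK3C2A*, *PIK3C3* and *PIK3R4*), 0 were down-regulated and 4 were not called (*PIK3R2*, *PIK3R3*, *PIK3CD* and *PIK3C2B*). Of all tested genes, 28.6% were up-regulated and 17.6% down-regulated. With an adjusted p under 0.01 and any fold, 8 members were higher, against 41.6% of tested genes. In 8 members every p85β KR-AA library lay above every parental one in CPM, as in 47.0% of tested genes, and in 0 members below (36.5% of tested genes). The median log2 fold change (p85β KR-AA over parental) was 2.15 over the members and 0.32 over the tested genes.

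Gene length and GC content moved with these differences. Tested genes with up to 40% GC were up-regulated in 54.8% of cases (median log2 fold change 1.80), those over 55% GC had a median of -1.23 with 7.72% up-regulated, and genes longer than 7000 bases had a median of 2.29. By GC content the members lie along this trend, with the GC-poor *PIK3CA* (35.7%), *PIK3C2A* (37.6%), *PIK3C3* (38.3%) and *PIK3R1* (40.1%) among the largest differences and the GC-rich *PIK3CD* (57.4%) and *PIK3R2* (64.1%) at the lower end. By length the order was looser. *PIK3CA* (9259 bases) and *PIK3C2A* (8227) were the longest members. *PIK3C3* (log2 fold change 2.65) was the shortest, with 2722 bases, and *PIK3C2B* had 1.18 at 7686 bases. When each library's relation to length and GC content was removed by offsets, 0 of the 10 members were called, against 17.7% of tested genes up-regulated and 6.55% down-regulated in that fit. *PIK3R1*, *PIK3C2A*, *PIK3C2B*, *PIK3C3* and *PIK3R4* then still had an adjusted p under 0.01 (edgeR) with log2 fold changes of 1.55, 1.10, 0.59, 1.56 and 1.25, each below a fold of 3. For that fit, the share of all tested genes passing this adjusted p at any fold is not given here. Whether these members stand out from it was therefore not tested. Without offsets, an adjusted p under 0.01 at any fold held for 41.6% of tested genes upward and 32.7% downward. What produces the trend with length and GC content was not tested.

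**Figure D1:**
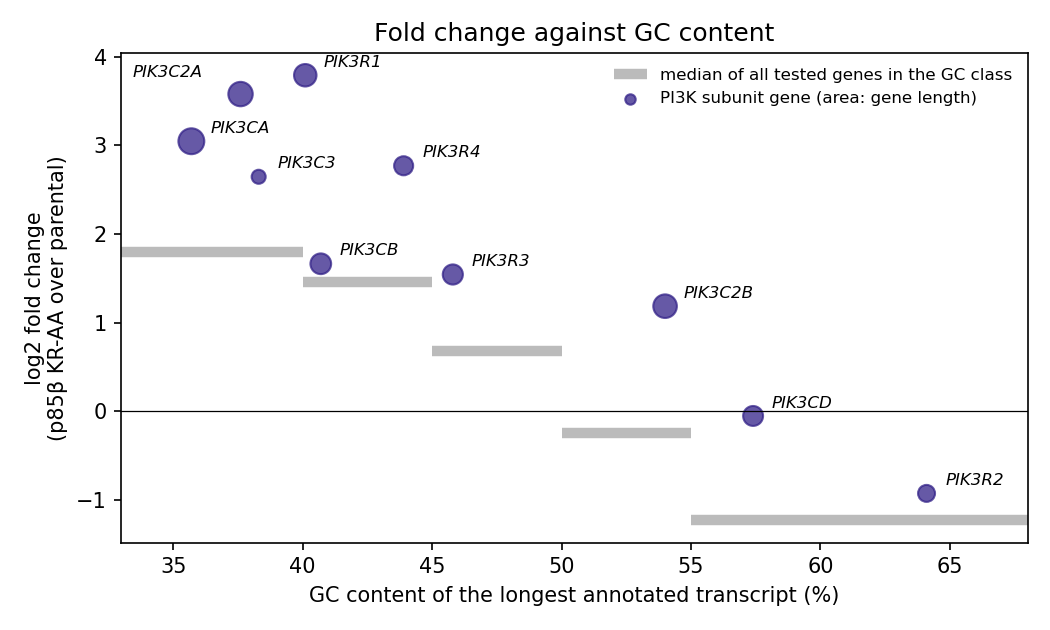
Log2 fold change (p85β KR-AA over parental, vertical axis) against GC content of the longest annotated transcript (percent, horizontal axis) for the 10 members, with point area showing gene length and grey bars giving the median of all tested genes in each GC class. *PIK3R1* at 40.1% GC and a value of 3.79 lies highest, *PIK3R2* at 64.1% GC and -0.93 lowest, and every member lies above the median of its GC class. The GC classes are not matched for length. Against the median of their length class, *PIK3C2B* (1.18 against 2.29), *PIK3CD* (-0.05 against 1.36) and *PIK3R2* (-0.93 against 0.23) lie below, and the other members above.

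*PIK3R2*, the edited gene, encodes p85β and lies on chromosome 19 (GRCh37, 18263973 to 18281342, plus strand). The 3 parental libraries held 524.1, 169.3 and 313 estimated counts of it, and those of p85β KR-AA cells 503.1, 476 and 124.5, or 22.1 ± 11.5 CPM and 11.6 ± 6.29 CPM (SD, n = 3 each). The groups overlapped: parental library 2 lay below p85β KR-AA libraries 1 and 2. The log2 fold change was -0.93 (SE 0.42, 95% interval -1.84 to -0.02, edgeR adjusted p = 0.0558). It was 0.32 with the length and GC offsets, -1.40 with offsets for length alone (edgeR adjusted p = 0.00959), and -0.0041 when libraries were scaled by their totals alone. The edgeR adjusted p was 2.31e-05 without the filter on low counts and 2.1e-05 with replicate number as a block. Those 2 fits took each gene's spread from the trend over all genes, and the fold stayed under 3.

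The reads of *PIK3R2* are shared with another gene model. A readthrough gene (ENSG00000268173) runs on the same strand from *PIK3R2* through IFI30, a lysosomal thiol reductase, and its exons cover 3942 bases of *PIK3R2* exons. It had 2901.8, 2287.9 and 2807.1 counts in parental and 1766.4, 1201.7 and 1780.6 in p85β KR-AA libraries, and was down-regulated (log2 fold change -1.78, SE 0.17, edgeR adjusted p = 5.39e-07). IFI30 itself had 1283, 1278.8 and 1467 counts in parental and 738.5, 487.3 and 500.9 in p85β KR-AA libraries and was also down-regulated (-2.28, SE 0.14, edgeR adjusted p = 1.46e-08). Every p85β KR-AA library was below every parental one for both genes. Of the counts assigned to *PIK3R2* and the readthrough gene together, *PIK3R2* received 15.3%, 6.89% and 10.03% in parental and 22.2%, 28.4% and 6.54% in p85β KR-AA libraries, so the split varied widely between libraries of one condition. The sum of both was tighter, 199.7 ± 25.1 CPM in parental and 63.2 ± 5.62 CPM in p85β KR-AA libraries (SD, n = 3), and its log2 fold change was -1.66 (edgeR adjusted p = 2.04e-07), past both thresholds. The level of *PIK3R2* alone is therefore uncertain. The sum leaves out the counts assigned to IFI30, but may include reads from exons that the readthrough gene shares with IFI30.

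*PIK3R1*, which encodes p85α, p55α and p50α, showed the largest difference among the members. It had 23, 12 and 27 counts in parental and 741, 635 and 405 in p85β KR-AA libraries, or 1.36 ± 0.42 and 19.0 ± 3.82 CPM (SD, n = 3). Its log2 fold change was 3.79 (SE 0.27, edgeR adjusted p = 5.27e-08), a 13.9-fold higher level. Even the lowest p85β KR-AA library lay far above the highest parental one. *PIK3R3*, which encodes p55γ, had 12, 22 and 36 counts in parental and 172, 134 and 115 in p85β KR-AA libraries, or 1.54 ± 0.71 and 4.52 ± 0.28 CPM. Its groups did not overlap and its log2 fold change was 1.54 (SE 0.31, edgeR adjusted p = 0.000514), a 2.91-fold difference just under the threshold of 3, and it shrank to 0.12 with the length and GC offsets. Scaling by library totals gave 2.46 and a call. The readthrough model P3R3URF-PIK3R3 over *PIK3R3* had 0 counts in all 6 libraries.

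**Figure D2:**
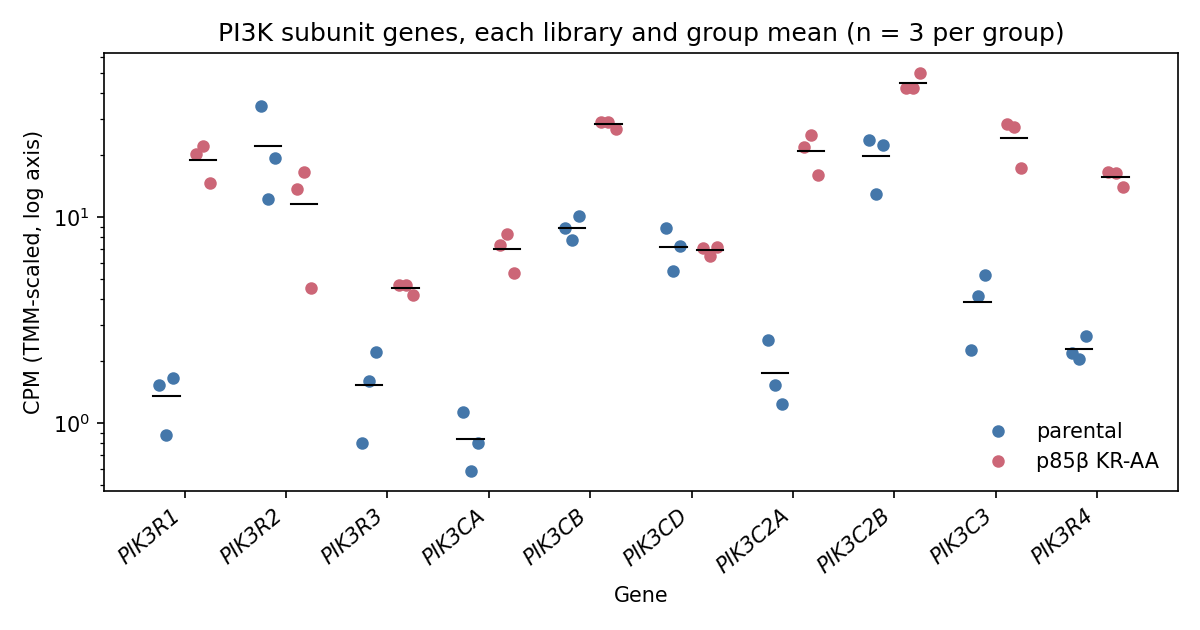
Level of each of the 10 members in each of the 6 libraries, in CPM after TMM scaling on a log axis, with 1 point per library and a bar at the mean of each condition. Points of the conditions are separate in 8 members and overlap in *PIK3R2* and *PIK3CD*.

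The class IA catalytic genes differed among themselves. *PIK3CA*, which encodes p110α, the isoform most often mutated in cancer, had 17, 8 and 13 counts in parental and 268.4, 238.4 and 148 in p85β KR-AA libraries (0.84 ± 0.27 and 7.01 ± 1.48 CPM). The p85β KR-AA libraries were all higher, with a log2 fold change of 3.05 (SE 0.30, edgeR adjusted p = 9.66e-07), or 8.26-fold. With the length and GC offsets it was 0.49 (edgeR adjusted p = 0.109). KCNMB3, on the opposite strand, overlaps 3403 bases of *PIK3CA* exons and had at most 3 counts in a parental library but 25.7, 27.6 and 9.3 with the mutation. Whether counting used the strand is not given in the sources used here, so reads of the overlap cannot be assigned to either gene with certainty.

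*PIK3CB*, which encodes p110β, a broadly expressed isoform, had 133, 106 and 165 counts in parental and 1062, 838 and 733 in p85β KR-AA libraries (8.91 ± 1.23 and 28.3 ± 1.37 CPM). The groups were well separated and the log2 fold change was 1.66 (SE 0.17, edgeR adjusted p = 1.23e-06), or 3.17-fold, just inside the threshold. It was 1.55 and no longer past the fold threshold with DESeq2 or without parental library 2, and -0.35 (edgeR adjusted p = 0.0265) with the length and GC offsets. *PIK3CD*, which encodes p110δ, best known in leukocytes, had 133, 75 and 117 counts in parental and 260, 186 and 197 in p85β KR-AA libraries (7.17 ± 1.69 and 6.92 ± 0.38 CPM). The p85β KR-AA values fell within the parental range, and the log2 fold change of -0.05 (SE 0.21, 95% interval -0.52 to 0.41, edgeR adjusted p = 0.82) did not pass the test. It became 0.86 when libraries were scaled by their totals and -1.11 (edgeR adjusted p = 0.000331) with offsets for length alone. CLSTN1, opposite *PIK3CD* with 189 shared exon bases, had 5557, 3136 and 4727 counts in parental and 7836, 5767 and 6547 in p85β KR-AA libraries (log2 fold change -0.45, edgeR adjusted p = 0.0246). The antisense RNA PIK3CD-AS2, whose exons do not overlap those of *PIK3CD*, had 30, 58 and 34 counts in parental and 11, 21 and 21 in p85β KR-AA libraries (log2 fold change -2.22, edgeR adjusted p = 0.000328).

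Both class II genes were higher in the p85β KR-AA libraries. *PIK3C2A*, which encodes PI3K-C2α, an enzyme of clathrin-coated pits and primary cilia, had 38, 21 and 20 counts in parental and 804, 725 and 441 in p85β KR-AA libraries (1.76 ± 0.68 and 21.1 ± 4.65 CPM). It was up-regulated 11.95-fold (log2 fold change 3.58, SE 0.28, edgeR adjusted p = 1.18e-07). *PIK3C2B*, which encodes PI3K-C2β, had 359, 179 and 363.1 counts in parental and 1552.1, 1217.8 and 1380.1 in p85β KR-AA libraries (19.8 ± 5.87 and 45.01 ± 4.57 CPM). Its groups did not overlap, and its 2.27-fold difference (log2 fold change 1.18, SE 0.21, edgeR adjusted p = 0.000166) did not reach the fold threshold. With offsets for length alone it turned to -0.37, with those for length and GC content it was 0.59, and with scaling by library totals it was 2.09 and called.

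The class III genes were both up-regulated. *PIK3C3* had 2.26, 4.15 and 5.24 CPM in parental (34, 57 and 85 counts) and 28.3, 27.4 and 17.4 CPM in p85β KR-AA libraries (means 3.88 ± 1.51 and 24.4 ± 6.05, SD), a 6.26-fold difference (log2 fold change 2.65, SE 0.29, edgeR adjusted p = 2.29e-06). *PIK3R4* had 33, 28 and 43 counts in parental and 612, 474 and 384 in p85β KR-AA libraries (2.29 ± 0.32 and 15.7 ± 1.51 CPM), a 6.82-fold difference (log2 fold change 2.77, SE 0.21, edgeR adjusted p = 8.63e-08). Every p85β KR-AA library was above every parental one for both.

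**Figure D3:**
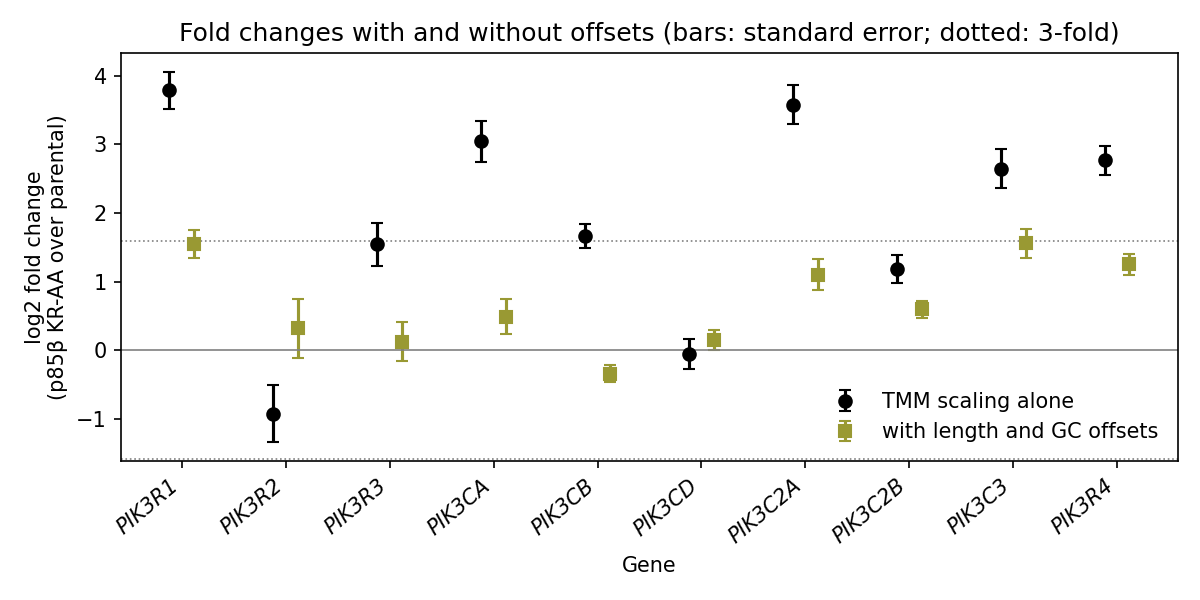
Log2 fold change (p85β KR-AA over parental, vertical axis) of the 10 members without (circles) and with (squares) offsets for length and GC content, where bars are standard errors and dotted lines mark a 3-fold difference. Without offsets *PIK3R1* (3.79), *PIK3C2A* (3.58) and *PIK3CA* (3.05) lie highest, and with offsets no member is above *PIK3C3* (1.56).

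Levels of different genes were compared as RPKM, that is, CPM divided by the deposited gene length in kilobases. In parental cells *PIK3R2* had the highest mean level of the members (5.57 RPKM), followed by *PIK3C2B* (2.57), *PIK3CB* (1.51), *PIK3C3* (1.43), *PIK3CD* (1.31), *PIK3R4* (0.457), *PIK3R3* (0.275), *PIK3C2A* (0.214), *PIK3R1* (0.194) and *PIK3CA* (0.0906). The ranges of neighbours over the 3 libraries did not overlap only between *PIK3CD* and *PIK3R4*, *PIK3R4* and *PIK3R3*, and *PIK3R1* and *PIK3CA*. In p85β KR-AA cells *PIK3C3* was highest (8.96 RPKM), followed by *PIK3C2B* (5.86), *PIK3CB* (4.78), *PIK3R4* (3.14), *PIK3R2* (2.92), *PIK3R1* (2.73), *PIK3C2A* (2.56), *PIK3CD* (1.26), *PIK3R3* (0.807) and *PIK3CA* (0.757). There the neighbours whose ranges did not overlap were *PIK3C2B* and *PIK3CB*, *PIK3CB* and *PIK3R4*, *PIK3C2A* and *PIK3CD*, and *PIK3CD* and *PIK3R3*. *PIK3CA* thus had the lowest mean RPKM of the members in both conditions, although its CPM differed 8.26-fold. With the readthrough counts added, *PIK3R2* had 50.2 ± 6.30 RPKM in parental and 15.9 ± 1.41 RPKM in p85β KR-AA cells (SD, n = 3), above every other member in both. Its place in these orders thus rests on how the shared reads were assigned. The sum was divided by the length of *PIK3R2* (3980 bases), although the readthrough gene is longer (5142 bases), so these levels are overstated. Reads from exons that the readthrough gene shares with IFI30 may also be included.

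The make-up of each class was also taken within each library, as a share of the summed RPKM of the class, which does not depend on scaling between libraries but keeps the trend with length and GC content. *PIK3R2* made up 96.0%, 88.3% and 88.4% of the class IA regulatory level in parental and 48.0%, 51.0% and 28.5% in p85β KR-AA libraries. *PIK3R1* made up 2.40%, 3.57% and 4.35% in parental libraries, against 40.3%, 38.8% and 52.8% with the mutation, and stood close to *PIK3R2* in libraries 1 and 2 and above it in library 3. The share of *PIK3R3* was 5.65% ± 3.57 and 13.5% ± 4.54 (SD, n = 3).

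Among the class IA catalytic genes, *PIK3CB* went from 52.2% ± 5.11 to 70.3% ± 0.17, *PIK3CD* from 44.8% ± 4.50 to 18.6% ± 1.79 and *PIK3CA* from 3.08% ± 0.61 to 11.1% ± 1.86 (SD, n = 3). The class IA regulatory level was 2.02 ± 0.71 times the catalytic level in parental and 0.94 ± 0.28 times in p85β KR-AA libraries. *PIK3C2A* made up 7.92% ± 2.66 and 30.4% ± 6.64 of the class II level. *PIK3C3* made up 74.3% ± 7.63 and 73.6% ± 3.43 of the class III level and was the only one of the 9 shares and ratios whose groups overlapped (two-sided exact permutation p = 1). The other 8 each had an exact permutation p = 0.1, the smallest that 3 against 3 libraries allow (0.1125 after Benjamini-Hochberg adjustment over the 9), and so could not pass a threshold of 0.05. Adding the counts of the readthrough gene to *PIK3R2*, again at the length of *PIK3R2*, raised its share to 99.1% ± 0.34 and 81.7% ± 3.78, lowered that of *PIK3R1* to 0.38% ± 0.11 and 14.1% ± 3.36, and gave regulatory to catalytic ratios of 17.6 ± 1.77 and 2.87 ± 0.27.

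**Figure D4:**
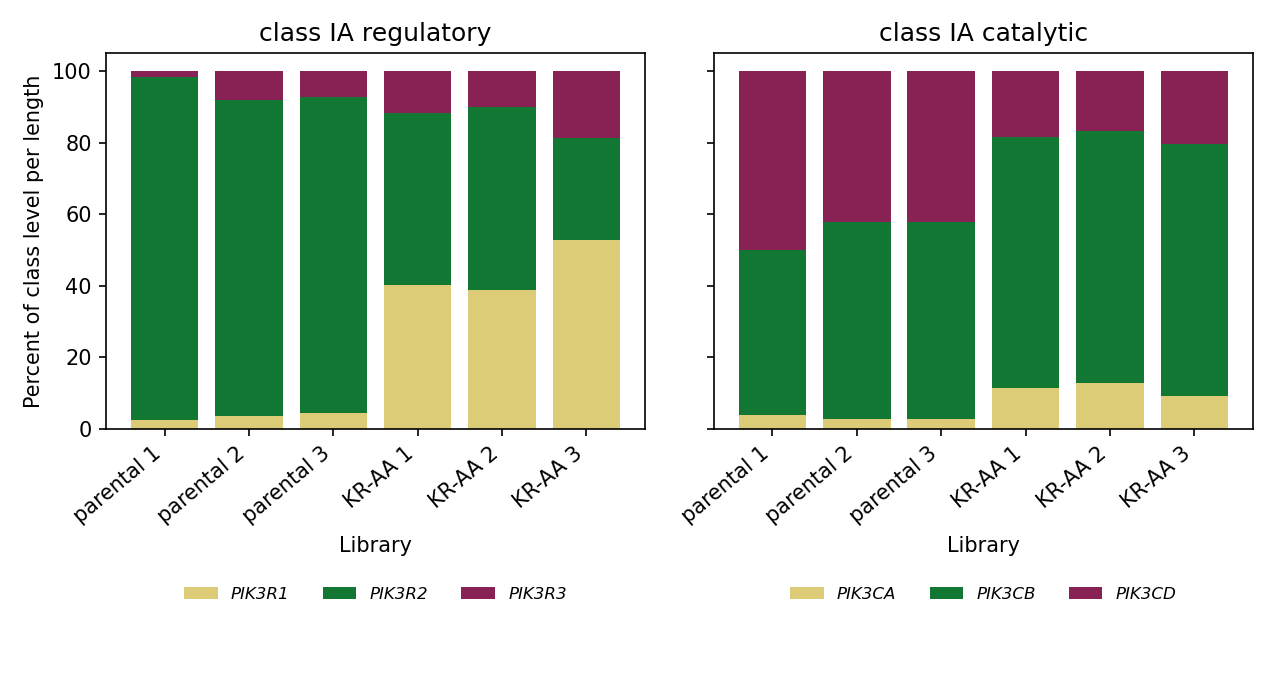
Percent of the class IA regulatory (left) and catalytic (right) level per length contributed by each gene in each of the 6 libraries, as stacked bars from 0 to 100. *PIK3R2* fills 88.3% to 96.0% of the regulatory bars of parental libraries, against 28.5% to 51.0% with the mutation.

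The genes whose mean-centred log2 CPM over the 6 libraries lay nearest to that of *PIK3R2*, by root mean square difference, were TPRKB (0.56), FEM1A (0.57), ASF1A (0.57), HMGN1 (0.58) and ANAPC10 (0.59). With 6 libraries in 2 conditions this likeness is only descriptive.

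Other genes of the pathway were taken from lists grouped by role. Of 64 genes, 60 were tested, 20 were up-regulated and 10 down-regulated, or 33.3% and 16.7% of those tested, close to the 28.6% and 17.6% of all tested genes. Their median log2 fold change was 0.89, against 0.32. Scaling by library totals gave 34 and 2 (7052 and 973 of all tested genes). The length and GC offsets gave 5 and 1 (17.7% and 6.55% of all tested genes). Of the 6 other PI3K family genes, 3 were tested. *PIK3R5*, the p101 regulatory subunit of class IB, was down-regulated (21, 14 and 12 counts in parental and 9, 9 and 7 in p85β KR-AA libraries, log2 fold change -1.94, edgeR adjusted p = 0.000748), and not called with the offsets (-1.03). The class IB catalytic gene *PIK3CG* and the class II gene *PIK3C2G* had 0 counts in 5 libraries and 1 in the other, where a count of 0 allows a level of up to 0.218 CPM per library.

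Upstream of class IA PI3K, 3 of the 6 tested receptor adaptors were up-regulated and 0 down-regulated. IRS2, an insulin receptor substrate that binds p85, had 23, 16 and 37 counts in parental and 1872, 1436 and 1177 in p85β KR-AA libraries (log2 fold change 4.83, SE 0.23, edgeR adjusted p = 4.8e-09), and kept a value of 4.71 with the length and GC offsets. GAB1 (2.51) and IRS1 (1.87) were also up-regulated, but had values of 0.07 and 0.60 with the offsets and were then not called. Of 12 lipid phosphatases, 4 were up-regulated and 2 down-regulated. The myotubularin genes MTMR2 (2.57) and MTMR6 (2.18), whose products act on PI3P, were up-regulated, while MTMR14 (-1.94) and the 5-phosphatase gene INPP5D (-2.09) were down-regulated. With the offsets 0 phosphatases were up-regulated (MTMR2 0.80, MTMR6 0.13), and INPP5D (-1.81) but not MTMR14 (-1.54) was down-regulated.

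Of 13 PIP3 effectors and genes of the AKT branch, 7 were up-regulated and 4 down-regulated. AKT1 fell from 565.5 ± 55.7 to 168.5 ± 11.3 CPM (log2 fold change -1.75, SE 0.13, edgeR adjusted p = 6.92e-08), and AKT2 had a log2 fold change of -0.96 and was not called. PDPK1, the kinase that activates AKT (2.58), and the AKT substrate FOXO3 (2.85) were up-regulated, and the AKT substrates BAD (-2.78) and AKT1S1 (-2.43) were down-regulated. With the offsets 0 genes of this list were down-regulated (AKT1 -0.30, BAD -0.17, AKT1S1 -1.18), and FOXO3 (1.56) was not called.

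Of 15 genes of the mTOR branch, 3 were up-regulated and 3 down-regulated, with RICTOR (3.56) and TSC1 (1.91) higher and RPS6KB2 (-2.86) and EIF4EBP1 (-2.14) lower, while MTOR (1.38) was not called. With the offsets 0 of them were called (RICTOR 1.18, TSC1 0.68, RPS6KB2 -1.24, EIF4EBP1 0.45). Of 6 partners of the class III pair, UVRAG was up-regulated (1.74, and 0.47 with the offsets) and 0 were down-regulated. BECN1, the core partner of VPS34, had 47.0 ± 8.35 CPM in parental and 50.8 ± 1.29 CPM in p85β KR-AA libraries (log2 fold change 0.11, edgeR adjusted p = 0.507). Of 5 genes linked to nuclear p85 proteins in the study, the histone methyltransferase gene EZH1 (2.65) and the deubiquitinase gene USP7 (2.02, and 0.94 with the offsets) were up-regulated. EZH2 (0.73, edgeR adjusted p = 0.00426, and -0.23 with the offsets) was not called. The study reported lower EZH1 and EZH2 protein in its knock-in clones, whereas the values here are RNA. For p85β knockout in DLD1 E545K-only cells it reported EZH1 and EZH2 mRNA as unaffected. With the length and GC offsets, IRS2, PDPK1, PHLPP1 and EZH1 were among the up-regulated pathway genes, and INPP5D was down-regulated.

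**Figure D5:**
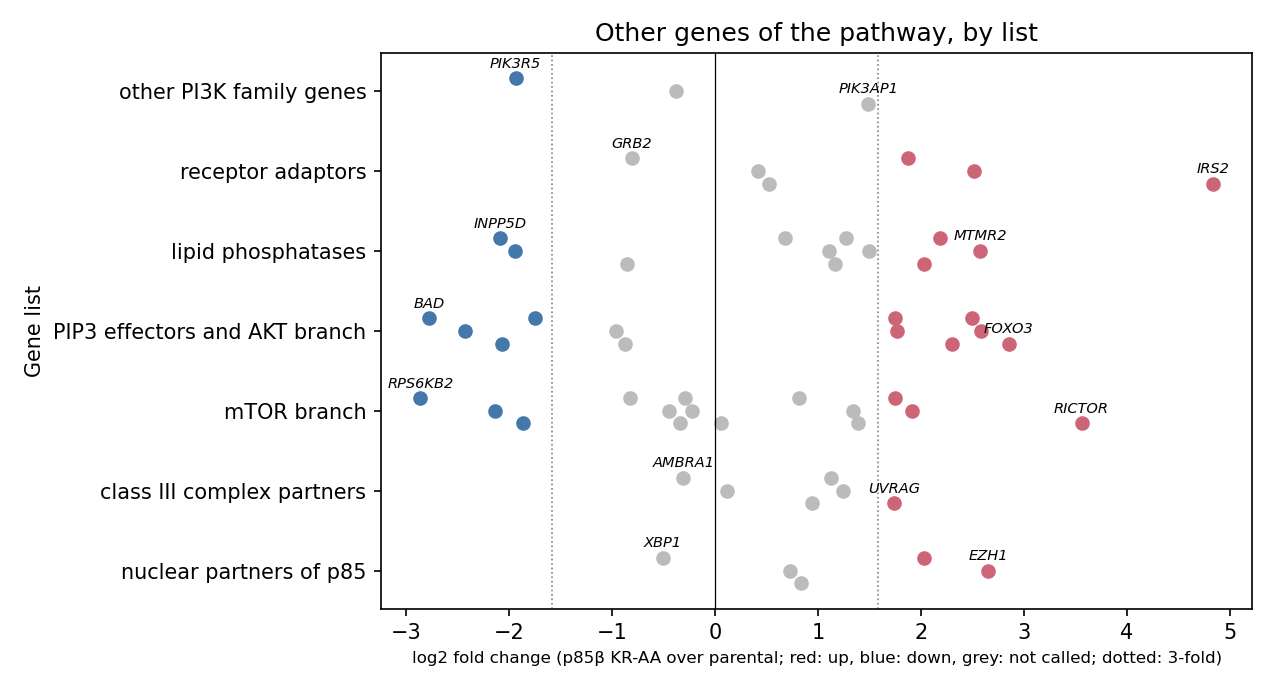
Log2 fold change (p85β KR-AA over parental) on the horizontal axis for 58 genes of the pathway lists, 1 point per gene (red up-regulated, blue down-regulated, grey not called, dotted lines at a 3-fold difference). Both directions occur among the called lipid phosphatases, AKT branch and mTOR branch genes. The called receptor adaptors (3 of 6), class III complex partners (1 of 6) and nuclear partners of p85 (2 of 5) all lie above 0. The 1 called gene of the other PI3K family list lies below 0. Of the adaptors not called, 1 lies below 0 (-0.81).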

How the data were processed

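Per the labels, total RNA of DLD1 cells was sequenced as TruSeq RNA libraries, 3 per condition. The authors trimmed paired-end reads with SeqPrep and Sickle, and the submitters' processing notes name HISAT2 2.1.0, RSEM 1.3.1, DESeq2 1.24.0 and hg18. The annotation is not given in the sources used here. The deposited table holds raw expected counts of each Ensembl gene in every library, beside 1 length per gene. The design assumed whole counts, so the expected counts were rounded before testing.

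Differential expression was tested with edgeR 4.0.16 under R 4.3.3 (TMM, low counts removed by filterByExpr at min.count 10 and min.total.count 15, quasi-likelihood F test, Benjamini-Hochberg adjustment over 16059 genes), with no covariate and with the study's thresholds, a fold of 3 and an adjusted p of 0.01. The fits were tested on simulated data. Depth was 20301396 to 26712816 counts, at which 3 counts are 0.0818 to 0.218 CPM. TMM factors were 0.677 to 0.777 in parental and 1.35 to 1.41 in p85β KR-AA libraries. Gene names, positions and GC content came from GENCODE 44 lifted to GRCh37, which annotates 56745 of the 58884 genes. Length and GC offsets were robust spline fits (5 df) per library. DESeq2 1.42.0 was an alternative. Within-library shares were compared by exact permutation.

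Named were all members, genes overlapping them with a mean of at least 10 counts in either condition, in each pathway list the 2 highest and 2 lowest called genes, 12 genes fixed by name, and the 5 protein-coding genes nearest to *PIK3R2*. The members and lists were chosen with earlier results of these data known. Counts over the pathway lists include 2 genes that are not reported here by name.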

Additional observations from a re-analysis of the deposited data

How the results depend on the processing

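Scaling by library totals raised the median of all tested genes from 0.32 to 1.241 and gave 34 up-regulated and 2 down-regulated pathway genes, 7052 and 973 genes in all, 0.86 for *PIK3CD*, and calls for *PIK3R3* (2.46) and *PIK3C2B* (2.09). Requiring 10 counts in every library left 2898 genes up-regulated and gave 0.14 for *PIK3CD*, and *PIK3CA* was then not tested. The length and GC offsets left 0 members up-regulated, 5 and 1 pathway genes up-regulated and down-regulated, 2821 and 1042 genes in all, and values of 0.32 for *PIK3R2*, -0.35 for *PIK3CB* and 0.15 for *PIK3CD*. Offsets for length alone gave 4 up-regulated members and 10 up-regulated pathway genes, beside 3884 up-regulated and 2073 down-regulated genes in all. Values were then -0.37 for *PIK3C2B*, -1.11 for *PIK3CD* and -1.40 for *PIK3R2*. Without a limit on the fold, 33 of the 60 tested pathway genes were up-regulated and 17 down-regulated, against 41.6% and 32.7% of all tested genes. In all, 5246 genes were then down-regulated, against 4289 at a fold of 2 and an adjusted p of 0.05. Adding the readthrough gene gave a log2 fold change of -1.66 for *PIK3R2* and differences in share of -17.4 points for *PIK3R2* and 13.8 points for *PIK3R1*. The regulatory to catalytic ratio, which is not a percentage, then differed by -14.7. Shares of counts not divided by length differed by 11.6 points for *PIK3CA* and 49.7 points for *PIK3R1*. The cause of these changes was not tested.

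Same-numbered libraries did not deviate together (correlations of -0.14, 0.12 and -0.04), so the numbers were not taken as pairs. With the replicate block, *PIK3R2* had a log2 fold change of -1.01 (edgeR adjusted p = 2.1e-05), and *PIK3R3* (1.60) joined the up-regulated members. That fit took each gene's spread from the trend over all genes (infinite prior df). The block with the length and GC offsets gave 0 members, 5 and 1 pathway genes, 2744 and 1018 genes in all, 0.19 for *PIK3R2*, -0.34 for *PIK3CB* and 0.15 for *PIK3CD*. Leaving out each library in turn gave 5 to 7 up-regulated members, beside 4404 to 4783 up-regulated genes in all. It gave -1.26 to -0.45 for *PIK3R2* and -0.24 to 0.11 for *PIK3CD*, positive without parental library 1. Of the values of single members, 127 kept their direction and side of the thresholds. With the direction kept, 14 lost a call and 9 gained one. The other 10 reversed direction, whether or not a call was also lost, as it was for *PIK3CB* with the length and GC offsets. The parental counts of *PIK3CA* (8 to 17) and *PIK3R1* (12 to 27) limit the precision of their folds.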
